A study of Mus musculus with 2 samples.

Results

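*Saa3*, *Lcn2*, *Hp* and *Slpi* are 4 of the 33670 gene symbols of the deposited matrices, and 4 of the 25085 with at least 1 UMI (unique molecular identifier, 1 captured mRNA molecule) in the kept cells. The members were chosen by their readout: *Saa3* and *Lcn2* were selected on their high ratio between the antibodies in microglia, so the ratios between the antibodies below are descriptions. The scRNA-seq held 2 libraries of live CD45+ cells sorted from the thalamus of C57B6/J mice with cortical ablation injury (CAI), 1 library for each antibody. Control Ab was normal rat IgG and anti-CD9 Ab was a rat antibody (clone KMC8) to the tetraspanin CD9. Both were given at 1.0 μg/μl through a thalamic cannula, 0.5 μl at a time, between days 7 and 19 after CAI, and the cells were collected on day 21. All mice of both groups thus had the same injury and cannula, and no uninjured library was analysed here. The ages of the mice are not in the labels. The study's methods give 4 pooled mice for a thalamic library without repeating it for the antibody groups. Each antibody had 1 library, so no difference between them could be tested. The effect of the antibody cannot be told apart from that of the pool of mice or of the library.

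Acute-phase proteins are secreted in large amounts during inflammation, mostly by liver and, for some of them, by myeloid and epithelial cells. Their genes are classic targets of IL-1, IL-6 and the transcription factors NF-kB, C/EBP and STAT3. *Saa3* encodes serum amyloid A3, the inducible serum amyloid A of mouse macrophages and fat tissue. *Lcn2* encodes lipocalin 2, which binds bacterial siderophores and is stored in neutrophil granules. *Hp* encodes haptoglobin, which binds free hemoglobin. *Slpi* encodes secretory leukocyte protease inhibitor, which blocks neutrophil elastase.

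The sequences before the start sites of the members are shown because the genes are textbook targets of the same families of factors. RefSeq promoters (GRCm38.p6) were matched for 3 of the 4 members. The 250 bases before each start are written 5′ to 3′ on the gene's own strand. Capitals mark matches on either strand to TTNNGNAA (C/EBP type), GGGA and CC with any 4 bases between (NF-kB type) or TTCNNNGAA (STAT type).
Saa3, chr7:46715677-46715926, minus strand: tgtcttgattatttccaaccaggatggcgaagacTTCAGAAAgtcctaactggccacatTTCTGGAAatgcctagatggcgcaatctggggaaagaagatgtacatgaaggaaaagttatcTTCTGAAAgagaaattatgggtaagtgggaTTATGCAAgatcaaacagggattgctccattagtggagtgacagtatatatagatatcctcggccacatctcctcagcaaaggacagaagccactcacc
Lcn2, chr2:32387740-32387989, minus strand: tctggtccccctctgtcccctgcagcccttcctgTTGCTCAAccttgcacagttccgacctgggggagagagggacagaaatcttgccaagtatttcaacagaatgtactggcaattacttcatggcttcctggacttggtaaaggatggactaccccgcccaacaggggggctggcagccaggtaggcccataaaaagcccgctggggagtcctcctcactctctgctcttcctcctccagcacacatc
Slpi, chr2:164356508-164356757, minus strand: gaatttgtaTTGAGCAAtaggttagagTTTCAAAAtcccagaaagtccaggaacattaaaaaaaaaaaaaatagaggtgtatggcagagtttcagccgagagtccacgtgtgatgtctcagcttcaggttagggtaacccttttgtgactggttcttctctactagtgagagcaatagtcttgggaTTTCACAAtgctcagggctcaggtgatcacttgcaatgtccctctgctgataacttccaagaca

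All capitals in these windows are C/EBP-type matches: 4 before *Saa3*, 1 before *Lcn2* and 3 before *Slpi*. Of 32851 RefSeq promoters, 36.8% held that motif in the same window, 17.6% the NF-kB type and 7.02% the STAT type. A match is a match of letters and not a measured site.

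Under the study's quality limits, with 200 to 7500 genes and at most 2% mitochondrial counts, 7467 of 12245 control Ab barcodes and 9162 of 15173 anti-CD9 Ab barcodes were kept. Their medians were 1880 and 1419 UMIs. Between 10.3% and 11.1% of kept cells were predicted doublets, and 18 kept barcodes occurred in both libraries. Clustering without the members, *Saa1*, *Saa2* and *Saa4* gave 27 clusters, of which 16 took a cell type name ending in "-like" from markers. Microglia-like cells (clusters 1 and 6, led by *Siglech* and *P2ry12* with 12 of 12 microglia markers up, and by *Lpl* and *Cst7* with 6 of 12) numbered 1800 and 797 (control Ab and anti-CD9 Ab, in this order throughout). Monocyte- or macrophage-like cells (cluster 2, led by *F13a1* and *Arg1*, 26.8% predicted doublets) numbered 270 and 1276, neutrophil-like cells 66 and 2686, and those with T cell markers (T cell-like) 2793 and 978. *Saa3*, which was not used to cluster, was among the leading genes of cluster 2. Leading genes were ranked on both libraries together, and most cells of this cluster came from the anti-CD9 Ab library, where *Saa3* was high. Levels are UMIs of the gene per 1000000 UMIs of the class (CPM), and intervals in parentheses are 95% intervals that cover counting error only. RNA freed from other cells adds UMIs to every droplet, so T cell-like cells are given beside the other classes as the background.

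Over all kept cells, the UMIs of each member were more numerous with anti-CD9 Ab: 3426 and 153519 for *Saa3*, 1020 and 32806 for *Lcn2*, 564 and 8103 for *Hp*, and 8933 and 48548 for *Slpi*. The genes lay in different cells. With anti-CD9 Ab, 82.0% of the *Saa3* UMIs were in monocyte- or macrophage-like cells and 5.61% in microglia-like cells. Neutrophil-like cells held 61.1% of the *Lcn2* UMIs and monocyte- or macrophage-like cells 12.0%. For *Hp*, the order was turned, with 64.1% in monocyte- or macrophage-like and 27.2% in neutrophil-like cells. *Slpi* UMIs were spread over plasma cell-like (34.3%), neutrophil-like (25.4%) and monocyte- or macrophage-like cells (10.7%), and 27.9% were in unnamed clusters. With control Ab, 88.9% of the *Slpi* UMIs came from the 144 plasma cell-like cells.

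**Figure D1:**
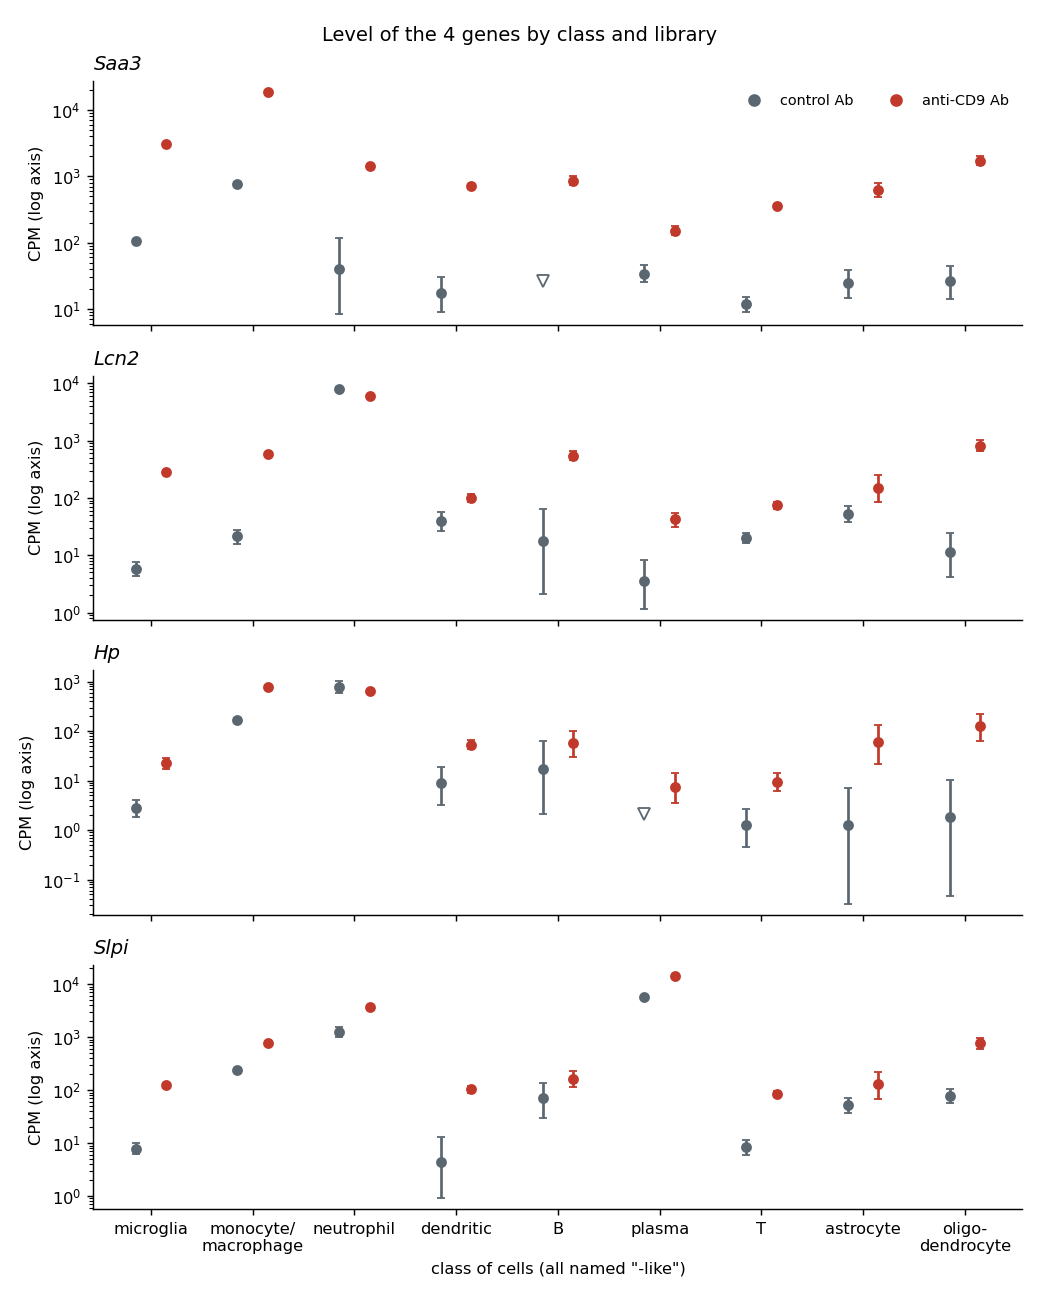
CPM (log axis) of each gene in 9 classes of cells with control Ab (grey) and anti-CD9 Ab (red), 1 library each. Bars are 95% Poisson intervals for counting error, and open triangles mark classes with 0 UMIs at the limit of 3 counts. *Saa3* is higher with anti-CD9 Ab in every class, while *Lcn2* and *Hp* are not higher in neutrophil-like cells taken whole. Without the cells rich in *Ngp*, a split chosen after seeing the data, *Lcn2* is higher there, at 1138 and 6001 CPM.

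In microglia-like cells, all 4 members were past 2-fold higher with anti-CD9 Ab. *Hp* was not past 2-fold without integration, at resolution 0.4 or without predicted doublets, with log2 ratios of 0.27, 0.61 and 0.74. Of the 10861 genes with at least 50 UMIs there, 3.42% were past 2-fold higher and 4.15% past 2-fold lower. These shares are the background of the comparison that chose the members, and nothing is read from the count. *Saa3* was at 106 CPM (99.9 to 113) and 3047 CPM (2983 to 3112) under the control and the anti-CD9 antibody, which is 4.84 (4.74 to 4.94) on the log2 scale. *Lcn2* was at 5.83 CPM (4.38 to 7.61) and 282 CPM (263 to 302), a log2 ratio of 5.59 (5.20 to 6.02). The control level of *Lcn2* came from 54 UMIs in 1800 cells. *Slpi* was at 7.88 and 122 CPM (log2 ratio 3.96, 3.59 to 4.34), and *Hp* at 2.81 and 22.6 CPM (3.01, 2.33 to 3.73). Ranked by log2 ratio, 4 genes stood above *Lcn2*, 10 above *Saa3*, 18 above *Slpi* and 28 above *Hp*. Since *Saa3* and *Lcn2* were selected on this ratio, nothing is read from the ranks either.

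T cell-like cells, which are not known to make these proteins, served as the background of each library. There *Saa3* was at 11.8 and 360 CPM, with a log2 ratio of 4.93 (4.55 to 5.35), close to that of microglia-like cells. In T cell-like cells, 3.29% of 9721 genes were past 2-fold higher and 2.51% past 2-fold lower, and the 3 members with at least 50 UMIs (*Saa3*, *Lcn2* and *Slpi*) were past 2-fold higher. *Lcn2* was at 20.3 and 73.8 CPM, *Slpi* at 8.48 and 83.3 CPM, and *Hp* at 1.24 and 9.54 CPM. With control Ab, *Lcn2* was therefore lower in microglia-like than in T cell-like cells, and the intervals of *Slpi* overlapped. Control T cell-like cells also held the neutrophil granule gene *Ngp*, at 52.9 CPM, as did dendritic cell-like cells (91.4 CPM). Plasma cell-like, B cell-like, astrocyte-like and oligodendrocyte-like cells had 0 *Ngp* UMIs with control Ab. Whether the *Lcn2* UMIs of control T cell-like cells were free RNA alone was not tested. A ratio between the antibodies in a class thus contains the ratio of the background.

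The share of cells with a UMI separated the members. Cells were thinned to 1000 UMIs each, since the median depth of microglia-like cells (3112 and 3391 UMIs) was above that of T cell-like cells (1552 and 2278). With anti-CD9 Ab, 42.5% (39.0 to 46.0%) of 779 microglia-like cells had a *Saa3* UMI, against 26.8% (23.9 to 29.8%) of 904 T cell-like cells. With control Ab the shares were 4.48% and 1.30%. Among thinned neutrophil-like cells with anti-CD9 Ab, 799 had a *Saa3* UMI and 1024 had none, so the microglia-like share was not particular to that class. The gene *Lcn2* was found in 9.76% (7.76 to 12.1%) of microglia-like and 3.98% (2.80 to 5.47%) of T cell-like cells with anti-CD9 Ab. For *Hp* (1.54% and 1.11%) and *Slpi* (5.01% and 5.09%) the intervals of the 2 classes overlapped, so this share did not separate microglia-like cells from the background. The CPM of both genes, given above, was higher in microglia-like than in T cell-like cells with anti-CD9 Ab. For *Slpi* this order turned when predicted doublets were left out. Without thinning, the microglia-like shares with anti-CD9 Ab were 66.9% for *Saa3*, 19.2% for *Lcn2*, 3.51% for *Hp* and 10.9% for *Slpi*, and the T cell-like shares 46.7%, 7.87%, 2.04% and 11.6%. *Lcn2* was not particular to microglia-like cells either. With anti-CD9 Ab, B cell-like cells held 113 *Lcn2* UMIs in 99 cells and oligodendrocyte-like cells 79 in 92. Per UMI of the class, both levels were above that of microglia-like cells, with 797 *Lcn2* UMIs in 797 cells. Whether these were free RNA or doublets was not tested.

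**Figure D2:**
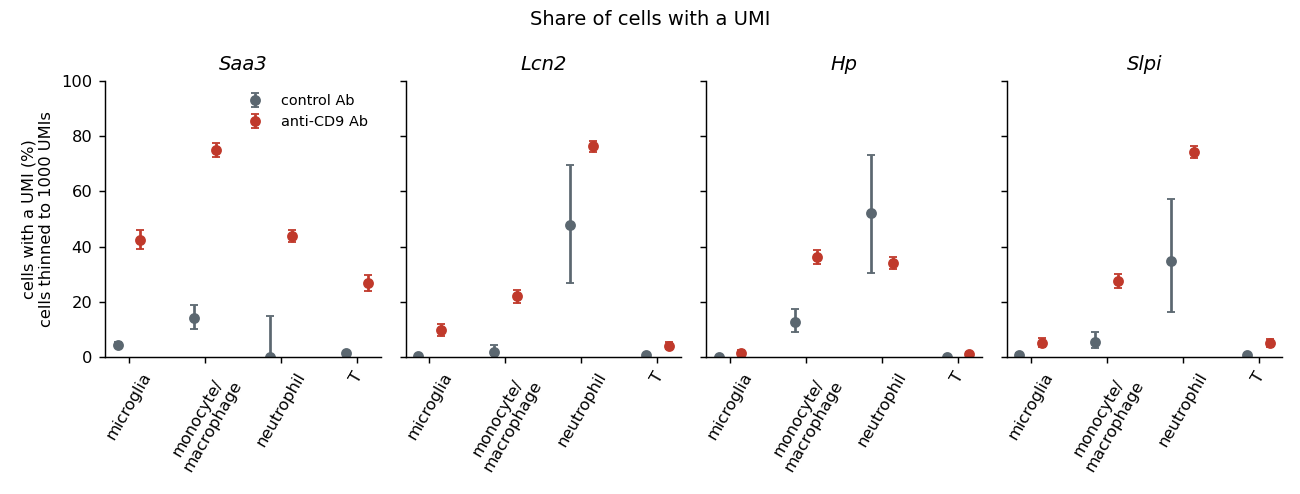
Share of cells (%) with at least 1 UMI of each gene after thinning to 1000 UMIs, by class and library, with 95% binomial intervals for counting error. With anti-CD9 Ab, *Saa3* is in 42.5% of microglia-like and 75.1% of monocyte- or macrophage-like cells against 26.8% of T cell-like cells. For *Hp* and *Slpi*, the intervals of microglia-like and T cell-like cells overlap.

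*Saa3* UMIs were unevenly spread among microglia-like cells. With anti-CD9 Ab, 57.5% of the thinned cells had no *Saa3* UMI and 7.70% (60 cells) had 10 or more of 1000, up to 69. With control Ab no microglia-like cell of 1763 had 10 or more, and the highest had 6. Among T cell-like cells with anti-CD9 Ab, 1 of 904 had 10 or more. The 10% of microglia-like cells with the most carried 69.4% of the *Saa3* UMIs with anti-CD9 Ab. By cluster, *Saa3* was at 119 and 1951 CPM in cluster 1 and at 96.8 and 5456 CPM in cluster 6, with log2 ratios of 4.04 (3.90 to 4.18) and 5.82 (5.68 to 5.95). Cluster 6 was led by *Lpl*, *Cst7*, *Igf1* and *Spp1*, and its *Saa3* log2 ratio was above that of cluster 1. The intervals do not cover the uneven spread of UMIs among cells, and this difference was not tested.

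**Figure D3:**
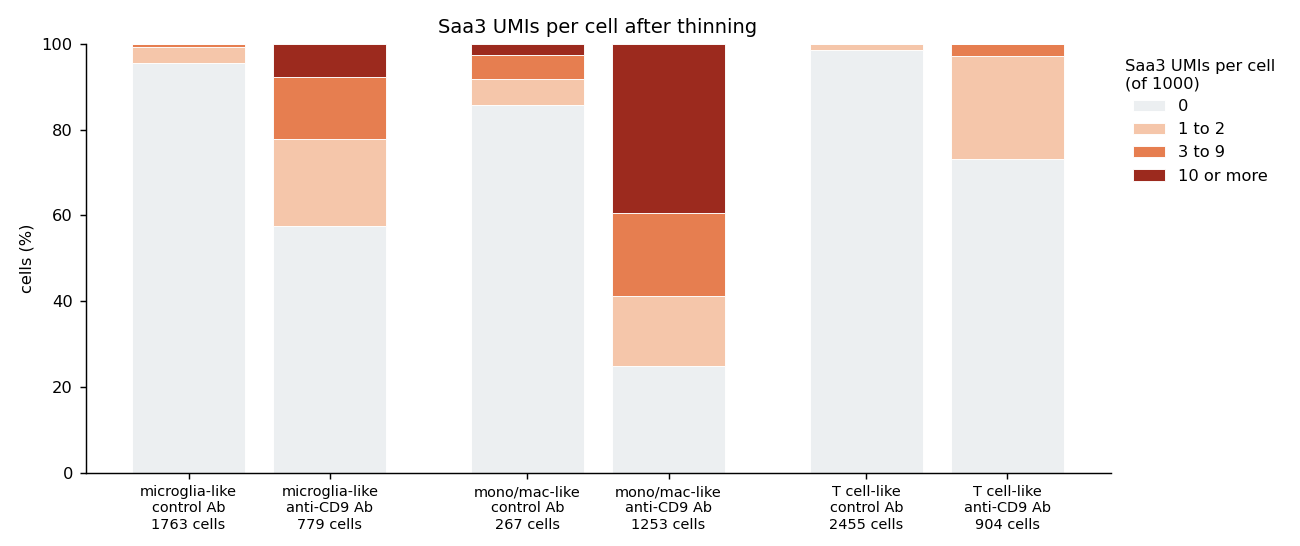
Share of cells (%) by the number of *Saa3* UMIs per cell after thinning to 1000 UMIs, for 3 classes and both libraries, with the number of thinned cells under each bar. Cells with 10 or more *Saa3* UMIs made up 7.70% of microglia-like and 39.5% of monocyte- or macrophage-like cells with anti-CD9 Ab.

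Neutrophil genes were also higher in microglia-like cells with anti-CD9 Ab. *S100a8*, which encodes an abundant calcium-binding protein of neutrophils, was at 27.1 and 195 CPM, with log2 ratios of 2.85 for *S100a8*, 3.12 for *S100a9* and 1.68 for *Retnlg*. Over the whole list of 12 neutrophil markers, none was at 0, 9 of the 10 with at least 50 UMIs were past 2-fold higher, and the summed level was 543 and 1334 CPM. T cell-like cells had the same markers at a sum of 202 and 407 CPM, with 5 of 8 past 2-fold higher and 0 lower, so the rise was not particular to microglia-like cells. Among the other lists in microglia-like cells, only the sums for astrocyte (324 and 507 CPM) and B cell markers (39.5 and 54.1 CPM) were higher with anti-CD9 Ab. The lower sums were, among others, 14195 and 9315 CPM for the 12 microglia markers, of which 1 was past 2-fold higher and 3 lower. They were 183 and 41.0 CPM for 10 T cell, 1423 and 1258 CPM for 10 monocyte, 603 and 427 CPM for 10 macrophage, and 314 and 161 CPM for 7 plasma cell markers. Of the 7 monocyte markers with at least 50 UMIs, 2 were past 2-fold higher and 0 lower, and of the 7 macrophage markers 2 were higher and 1 lower. The log2 ratios were 2.15 for *Arg1*, 0.50 (−0.16 to 1.12) for *F13a1* and −0.39 (−1.17 to 0.32) for *Ccr2*. In the 1658 and 574 microglia-like cells without a UMI of these 6 genes, *Saa3* was at 72.5 and 3086 CPM, a log2 ratio of 5.41 (5.29 to 5.54). *Lcn2* was at 105 CPM in these cells with anti-CD9 Ab and at 705 CPM in the 223 cells with such a UMI. T cell-like cells without a UMI of the 6 genes had 9.20 and 78.9 CPM of *Lcn2*, and those with such a UMI 29.3 and 71.6 CPM. *Slpi* and *Hp* were at 45.6 and 7.51 CPM in microglia-like cells without these UMIs, against 104 and 6.17 CPM in the matching T cell-like cells. With predicted doublets left out, *Lcn2* in microglia-like cells with anti-CD9 Ab was at 70.3 CPM and in 4.67% of thinned cells, against 2.79% of T cell-like cells, and its log2 ratio was 3.55. *Slpi* was then at 21.4 CPM and *Hp* at 4.29 CPM, whereas *Saa3* stayed at 2828 CPM. What part the neutrophil markers and doublets had in *Lcn2*, *Hp* and *Slpi* was not tested further.

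The members found together in a cell were counted in this class and in T cell-like cells. Of the 76 thinned microglia-like cells with an *Lcn2* UMI and anti-CD9 Ab, 15.8% had *Slpi* and 6.58% had *Hp*, against 3.84% and 0.996% of the 703 others. Of the 36 T cell-like cells with *Lcn2*, 30.6% had *Slpi* and 8.33% had *Hp*, against 4.03% and 0.806% of the 868 others. Of the 331 microglia-like cells with *Saa3*, 14.2% had *Lcn2* and 4.83% had *Slpi*, against 6.47% and 5.13% of the 448 without. Among T cell-like cells, *Lcn2* was in 7.44% of those with *Saa3* and 2.72% of those without.

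In monocyte- or macrophage-like cells, all 4 members were past 2-fold higher, where 6.86% of 9637 genes were past 2-fold higher and 10.9% past 2-fold lower. Cell type markers differed too. The 12 microglia markers summed to 6428 and 897 CPM, all 12 past 2-fold lower, and 9 of 10 T cell markers were lower. Past 2-fold higher were 9 of 10 monocyte and 9 of 12 neutrophil markers. Of 9 macrophage markers, 6 were higher and 2 lower. Whether the mixture of cells or the level within a cell type differed was not tested. Here *Saa3* was at 775 CPM (741 to 809.6) and 18488 CPM, and its log2 ratio was 4.58 (4.51 to 4.64). That is a mean of 7.29 and 98.7 *Saa3* UMIs per cell. A sub-cluster of mostly predicted doublets, described below, held 960 of the 1968 control *Saa3* UMIs, at 746 CPM, close to the level of the class. *Saa3* was in 14.2% and 75.1% (72.6 to 77.5%) of thinned cells, and 2.62% and 39.5% of them had 10 or more UMIs. *Hp* was at 170.0 and 762 CPM (log2 ratio 2.16, 2.02 to 2.31) and in 12.7% and 36.2% of thinned cells. *Lcn2* was at 21.3 CPM with control Ab, next to 20.3 CPM in T cell-like cells, and at 576 CPM with anti-CD9 Ab (4.76, 4.37 to 5.18). *Slpi* was at 237 and 761 CPM (1.68, 1.56 to 1.81). Leaving out predicted doublets took the control level of *Slpi* from 237 to 67.9 CPM and its log2 ratio to 3.65. Unlike in microglia-like cells, the shares of all 4 genes with anti-CD9 Ab were above those of T cell-like cells, from 22.0% for *Lcn2* to 75.1% for *Saa3*. With anti-CD9 Ab, 27.5% of the thinned cells with *Saa3* also had *Lcn2*, against 5.45% of those without *Saa3*.

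Clustering the monocyte- or macrophage-like cells alone gave 6 sub-clusters with different levels of the members. Sub-cluster 0 (14 and 483 cells) was led by *Nos2*, which encodes inducible nitric oxide synthase, *Slc7a2*, *Ptges* and *Ptgs2*, and also by *Lcn2* and *Saa3* themselves. *Saa3* there was at 8519 CPM (7801 to 9286) and 35349.7 CPM (35123 to 35578), and its log2 ratio of 2.05 (1.93 to 2.18) was below that of the whole class. *Hp* was at 1069 and 1362 CPM in sub-cluster 0 (log2 ratio 0.35, with an interval that includes 0). *Lcn2* had 0 UMIs in the 14 control cells and was at 1144 CPM with anti-CD9 Ab. In sub-cluster 1 (29 and 295 cells), led by *Tmem176b*, *Pf4* and *Ms4a7*, *Saa3* was at 1892 and 9233 CPM and *Hp* at 320 and 368 CPM. The antibody ratio of *Hp* in the whole class was therefore larger than in either of these sub-clusters.

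Sub-cluster 2 (137 and 184 cells), led by *Fabp5*, *Gpnmb* and *Spp1*, held *Saa3* at 123 and 7842 CPM, and the log2 ratio was 5.99 (5.72 to 6.27). Its *Hp* was at 131 and 209 CPM (0.68, 0.35 to 1.01) and its *Slpi* at 79.6 and 197 CPM (1.31, 0.92 to 1.72). In sub-cluster 3 (16 and 216 cells), led by the monocyte genes *Chil3*, *Ifitm6* and *Vcan*, *Saa3* rested on 2 control UMIs and was at 3179.5 CPM with anti-CD9 Ab. Over sub-clusters 0 to 3, *Saa3* with anti-CD9 Ab thus went from 3179.5 to 35349.7 CPM. Sub-clusters 4 and 5 were 78.7% and 96.8% predicted doublets, the latter led by *S100a9* and *S100a8*. Sub-cluster 4 had 73 and 68 cells. It held 960 of the 1968 control *Saa3* UMIs of the class, 503 of 602 for *Slpi*, 169 of 432 for *Hp* and 32 of 54 for *Lcn2*. With control Ab, *Saa3* (746 CPM) and *Hp* (131 CPM) in this sub-cluster were not above the levels of the whole class. *Slpi* (391 CPM) and *Lcn2* (24.9 CPM) were above them. A large part of the members' control UMIs thus came from a sub-cluster of mostly predicted doublets, which also held a large part of all control UMIs of the class. For *Saa3* and *Hp*, its part was no larger than its part of all UMIs, as their CPM shows. *Lcn2* was slightly above that part, and *Slpi* was the most concentrated in the sub-cluster.

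**Figure D4:**
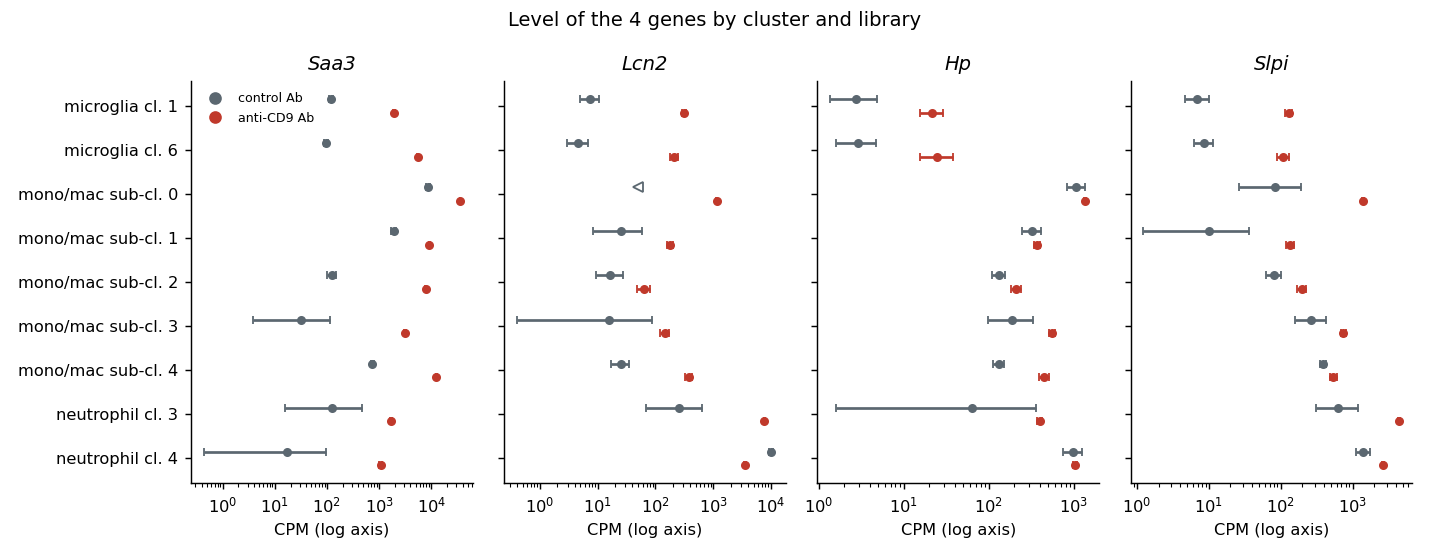
CPM (log axis) of each gene in 2 microglia-like clusters, 5 sub-clusters of monocyte- or macrophage-like cells and 2 neutrophil-like clusters with control Ab (grey) and anti-CD9 Ab (red), 1 library each, with 95% Poisson intervals. Open triangles mark 0 UMIs at the limit of 3 counts. *Saa3* is higher with anti-CD9 Ab in all 9 rows, and *Lcn2* is lower in neutrophil-like cluster 4. Without the cells rich in *Ngp*, a split chosen after seeing the data, *Lcn2* is higher there (1522 and 3491 CPM).

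Neutrophil-like cells carried *Lcn2*, *Hp* and *Slpi* in both libraries. *Lcn2* was at 8019 CPM (7388 to 8690) and 6025 CPM (5942 to 6109), and its log2 ratio was −0.41 (−0.53 to −0.29), a direction that turned without 7 control cells described below. *Hp* was at 782 and 662 CPM (−0.24, −0.62 to 0.16), and *Slpi* at 1240.0 and 3704 CPM (1.58, 1.28 to 1.89). *Saa3* had 3 control UMIs and was at 1433 CPM with anti-CD9 Ab, or 1.77 UMIs per cell. The control values rest on 66 cells, of which 50 were in cluster 4. In that cluster, led by *Retnlg*, *S100a8* and *Cxcr2*, *Lcn2* was at 10102 and 3560.4 CPM (log2 ratio −1.50, −1.63 to −1.38), next to a log2 ratio of −1.14 for *S100a8*. Granule genes were also lower in cluster 4 with anti-CD9 Ab and were looked at after their values were seen. *Ngp*, which encodes neutrophilic granule protein, was at 17008 and 129 CPM in cluster 4 (log2 ratio −7.04), *Camp*, the cathelicidin gene, at 22119 and 214 CPM (−6.69), and *Ltf*, the lactoferrin gene, at 4307 and 49.0 CPM (−6.46). Of the 50 control cells, 7 had 10 or more *Ngp* UMIs and held 536 of the 591 *Lcn2* UMIs, against 3 of 1226 such cells with anti-CD9 Ab. In cells under 10 *Ngp* UMIs, *Lcn2* was higher with anti-CD9 Ab, at 1522 and 3491 CPM in cluster 4 (log2 ratio 1.20, 0.81 to 1.61) and at 1138 and 6001 CPM in all neutrophil-like cells (2.40, 2.03 to 2.79). This split was chosen after seeing the data. It left 55 *Lcn2* UMIs in 43 control cells of cluster 4. Leaving out the 7 control cells with most of the *Lcn2* UMIs lowers the control level by itself. Over the list of neutrophil proteases, granule proteins and antiproteases, 4 of 12 genes were past 2-fold higher and 5 lower in neutrophil-like cells, next to 19.2% and 19.6% of 5400 genes, with a median of −0.35 next to −0.15 over all genes. Cluster 3, led by *Cxcl2*, *Ccl4* and *Rsad2*, held 16 control cells, and its *Lcn2* was at 255 CPM from 4 UMIs and at 7745 CPM with anti-CD9 Ab. *Hp* with anti-CD9 Ab was lower in cluster 3 (396 CPM) than in cluster 4 (1041 CPM), while *Slpi* was higher (4425 and 2669.6 CPM).

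Plasma cell-like cells had the highest *Slpi* CPM of the 9 named classes in both libraries. *Slpi* was at 5657 CPM (5533 to 5782) and 14003 CPM (13791 to 14218), and its log2 ratio was 1.31. It was in 47.2% (38.8 to 55.7%) and 58.3% (48.7 to 67.4%) of thinned cells, intervals that overlap. The level differed widely from cell to cell, with no UMI in 41.7% and 10 or more in 29.6% of thinned cells with anti-CD9 Ab. *Hp* had 0 UMIs in plasma cell-like cells with control Ab, which allows up to 2.14 CPM, and was at 7.58 CPM with anti-CD9 Ab.

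In the remaining classes *Saa3* was also higher with anti-CD9 Ab, at few UMIs per cell. It was at 17.7 and 726 CPM in dendritic cell-like, 24.6 and 627 CPM in astrocyte-like, and 26.2 and 1724 CPM in oligodendrocyte-like cells. B cell-like cells had 0 *Saa3* UMIs with control Ab and reached 864 CPM under anti-CD9 Ab, at least 32.9-fold higher against a floor of 3 counts in the control library. These levels are 0.797 to 3.15 *Saa3* UMIs per cell, next to 1.00 in T cell-like, 10.8 in microglia-like and 98.7 in monocyte- or macrophage-like cells. The oligodendrocyte-like and astrocyte-like cells with anti-CD9 Ab were shallow, with medians of 844.5 and 895 UMIs. Per UMI of the class, the *Saa3* level of oligodendrocyte-like cells was below but near that of microglia-like cluster 1, given above.

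Other genes of the acute-phase response were counted in lists, for genes that had 50 UMIs or more in the 2 libraries of a class together. In microglia-like cells, 5 of 9 other acute-phase genes were past 2-fold higher and 0 past 2-fold lower, with a median log2 ratio of 1.08 next to 0.01 over all genes. *Il1rn*, the interleukin 1 receptor antagonist, was at 8.64 and 96.1 CPM (log2 ratio 3.48), complement *C4b* at 28.3 and 115 CPM (2.02), and ceruloplasmin *Cp* at 64.7 and 201 CPM (1.64). T cell-like cells had *Il1rn* at 2.27 and 28.3 CPM (3.64). With anti-CD9 Ab it was at 150 CPM in B cell-like, 343 CPM in oligodendrocyte-like, 61.5 CPM in plasma cell-like and 29.8 CPM in astrocyte-like cells. *Cd14* (0.03), *Mt1* (0.18) and *Cfb* (0.54) had the lowest log2 ratios. In monocyte- or macrophage-like cells, 6 of 10 were past 2-fold higher and 0 lower, with *Il1rn* at 22.4 and 305 CPM (3.77), *Cfb*, complement factor B, at 137 and 622 CPM (2.18) and *Cd14*, a receptor for lipopolysaccharide, at 178 and 673 CPM (1.92). *Cp* (0.08) and *Mt1* (0.22) were close to no difference there. The list's median there was 1.26, next to −0.14 over all genes. All the list counts below stand beside the shares over all genes given above, which were 3.42% higher and 4.15% lower in microglia-like cells and 6.86% and 10.9% in monocyte- or macrophage-like cells. The neighbours of *Saa3*, which lie next to it in the RefSeq order, were almost silent and were looked at after their values were seen: *Saa1* had 0 and 44 UMIs, *Saa2* 0 and 13, and *Saa4* none.

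Of the inducing cytokines, receptors and transcription factors, 6 of 20 were past 2-fold higher and 0 lower in microglia-like cells, and 9 of 21 higher and 1 lower in monocyte- or macrophage-like cells. The medians of this list were 0.40 and 0.81. *Il1b* was at 26.5 and 221 CPM in microglia-like (log2 ratio 3.06) and 94.9 and 1295 CPM in monocyte- or macrophage-like cells (3.77). The microglia-like level was not above that of all other classes. With anti-CD9 Ab, *Il1b* was at 690 CPM in B cell-like, 852 CPM in oligodendrocyte-like, 527 CPM in astrocyte-like and 71.6 CPM in plasma cell-like cells. The STAT3 target and inhibitor *Socs3* had log2 ratios of 2.50 and 3.39, and *Cebpb*, which encodes a C/EBP factor, of 1.56 and 2.40. Neither rise was particular to microglia-like cells. With anti-CD9 Ab, their *Cebpb* (458 CPM) was below that of oligodendrocyte-like (654 CPM, log2 ratio 3.64) and B cell-like cells (536 CPM, 2.23). Astrocyte-like (219 CPM, 3.01) and plasma cell-like cells (140 CPM, 0.35) had less. *Socs3* was then at 157 CPM in microglia-like cells. B cell-like cells had 140 CPM, from 0 control UMIs, and oligodendrocyte-like cells 83.1 CPM. What part free RNA or doublets had was not tested. *Il6st*, the shared signal receptor of the IL-6 family, had log2 ratios of −0.62 and −1.36, and was the gene past 2-fold lower. In T cell-like cells 4 of 21 of these genes were past 2-fold higher. They were *Il1b* at 0.827 and 51.4 CPM, *Il17a* at 278 and 1221 CPM (log2 ratio 2.14), *Cebpd* (1.63) and *Socs3* (1.24).

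Of the receptors of the members, 3 of 9 were past 2-fold higher in microglia-like cells, and 2 of 8 higher and 2 lower in monocyte- or macrophage-like cells. The medians were 0.27 and −0.14, the latter equal to that over all genes. The formyl peptide receptors *Fpr1* (7.87 and 149 CPM, log2 ratio 4.24) and *Fpr2* (16.1 and 183 CPM, 3.50), of which the latter binds serum amyloid A, were the higher ones in monocyte- or macrophage-like cells. Their control values rest on 20 and 41 UMIs. Neutrophil-like cells with anti-CD9 Ab held more of both, at 428 and 374 CPM, and what part neutrophil RNA had was not tested. *P2rx7* (−1.09) was among the lower ones. *Cd36*, a scavenger receptor, had a log2 ratio of 1.82 in microglia-like cells. *Tlr2* was near no difference in both classes, at −0.05 and 0.33. *Lrp1* (−0.83 and −0.61) was below 0 in both.

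Of the genes for heme and iron handling, 1 of 8 was past 2-fold higher in microglia-like cells, and 2 of 9 higher and 2 lower in monocyte- or macrophage-like cells, with medians of 0.41 and 0.03. *Hmox1*, heme oxygenase 1, was at 52.0 and 112 CPM (log2 ratio 1.10) and at 203 and 445 CPM (1.13). Ferritin heavy chain *Fth1* had log2 ratios of 0.83 and 1.67, while ferritin light chain *Ftl1* had 0.04 and −0.21. Of the neutrophil proteases, granule proteins and antiproteases, 1 of 3 was past 2-fold higher in microglia-like cells, namely *Wfdc17* (11.6 and 65.7 CPM, log2 ratio 2.51). In monocyte- or macrophage-like cells 4 of 7 were higher and 1 lower. The medians were 0.63 and 1.28. *Wfdc21*, of the same WAP domain family as *Slpi*, was at 2.36 and 58.1 CPM (4.62, from 6 control UMIs) and *Mmp8* at 10.6 and 61.8 CPM (2.54). *Grn*, which encodes progranulin, was lower (−1.24). Neutrophil-like cells with anti-CD9 Ab held *Wfdc21* at 625 CPM and *Mmp8* at 276 CPM, with log2 ratios of 0.14 and −1.20. What part neutrophil RNA had in the monocyte- or macrophage-like values was not tested. In T cell-like cells, 0 of 7 of the last list were past 2-fold higher and 2 lower, while 2 of 5 other acute-phase genes, 0 of 2 receptors and 1 of 6 heme and iron genes were higher and none lower. *Wfdc17* was under the limit of 50 UMIs there, at 0.827 and 14.7 CPM (log2 ratio 4.15). With anti-CD9 Ab it was at 239 CPM in oligodendrocyte-like and 22.7 CPM in plasma cell-like cells.

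The pattern over the 9 classes and 2 libraries differed between the members. Pearson's r of log2(CPM + 10) over these 18 points was 0.84 between *Lcn2* and *Hp*, 0.61 between *Saa3* and *Hp*, and 0.31 between *Saa3* and *Slpi*. The genes most like *Saa3* among 11075 were *Ccl8* (r = 0.88), *Aoah* (0.86), *Socs3* (0.84), *Xdh* (0.81) and *Gm56768* (0.80). Those most like *Lcn2* were *Wfdc21* (0.96), *Gm57366* (0.94), *Trem3* (0.93), *Slfn4* (0.92) and *Arg2* (0.92). *Hp* was most like *Gda* (0.95), *Msrb1* (0.95), *Gm21188* (0.94), *Emilin2* (0.94) and *Wfdc17* (0.94). *Slpi* was most like *Ell2* (0.88), *Ighg1* (0.77), *Ptges* (0.75), *Ckap4* (0.69) and *Tex14* (0.67). The points share 2 libraries and their free RNA, and differ in depth.

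**Figure D5:**
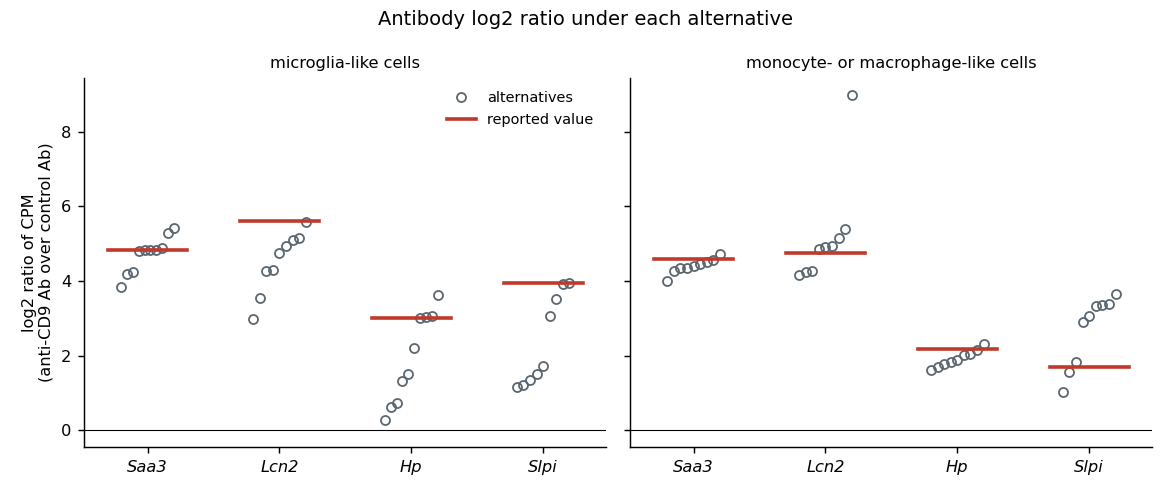
Log2 ratio of CPM (anti-CD9 Ab over control Ab) of each gene in microglia-like and in monocyte- or macrophage-like cells as reported (red line) and under each alternative (grey circles). All 74 values under alternatives are above 0, from 0.27 for *Hp* in microglia-like cells without integration to 8.98 for *Lcn2* in monocyte- or macrophage-like cells after the T cell-like level was subtracted.

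The values depended on how microglia-like cells were delimited. With 20 principal components, *Saa3* in microglia-like cells was at 116 and 1669 CPM (log2 ratio 3.85) and *Lcn2* at 6.94 and 54.4 CPM (2.97). Over all alternatives the log2 ratio in microglia-like cells went from 3.85 to 5.41 for *Saa3*, 2.97 to 5.58 for *Lcn2*, 0.27 to 3.63 for *Hp* and 1.17 to 3.94 for *Slpi*.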

How the data were processed

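Per the labels, the authors aligned 10x Genomics 3′ reads with Cell Ranger 8.0.0 to GRCm39 (the study's methods give another version and build) and deposited raw UMI counts per gene and barcode for each library. From these counts, cells were kept at 200 to 7500 genes and no more than 2% mitochondrial counts. Doublets were predicted by nearest neighbours of simulated cell pairs (0.8% per 1000 barcodes). Clusters came from Seurat 5.3.0 in R 4.3.3 (anchor integration, 2000 variable genes without the members, 30 dimensions, resolution 0.8). A cluster was named when at least 50% of a type's markers, and at least 3, were up by a log2 ratio of 1, with no more than 50% doublets and no rival type within 25 points. This rule was chosen after seeing the data.

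UMIs were summed per class and library and given as CPM with exact Poisson intervals, and ratios with exact conditional binomial intervals. Shares were counted after thinning to 1000 UMIs, leaving out shallower cells: 37 and 18 microglia-like, 3 and 23 monocyte- or macrophage-like, 43 and 863 neutrophil-like, and 338 and 74 T cell-like (control Ab and anti-CD9 Ab). The ratio, its interval and the thinned share were checked on simulated independent counts with Python 3.11.15 and scipy 1.17.1. These counts lack the uneven spread of UMIs among cells, so the check does not cover it. No test between libraries was made. Named are the members, 6 genes of neutrophils, monocytes and macrophages, from each list the 3 highest and 3 lowest log2 ratios with at least 200 UMIs, the 5 genes most like each member, and leading genes of clusters. The members and lists were chosen with earlier results of these data known.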

Additional observations from a re-analysis of the deposited data

Results flagged for a closer look

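*Lcn2* went in opposite directions in different cells. In neutrophil-like cluster 4, led by *Retnlg*, *S100a8* and *Cxcr2*, its log2 ratio was −1.50 (anti-CD9 Ab lower), while it was 5.59 in microglia-like and 4.76 in monocyte- or macrophage-like cells. The control level rests on 591 *Lcn2* UMIs in 50 cells of 1 library, and with 1 library per antibody the difference was not tested. Of these UMIs, 536 were in 7 cells with 10 or more *Ngp* UMIs, and the granule genes *Ngp*, *Camp* and *Ltf* had log2 ratios of −7.04, −6.69 and −6.46 in this cluster. In cells under 10 *Ngp* UMIs, an alternative chosen after seeing the data, the log2 ratio of *Lcn2* was 1.20 and thus in the direction of the other classes.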

How the results depend on the processing

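All 74 log2 ratios of the members recomputed under alternatives in microglia-like and monocyte- or macrophage-like cells were above 0, and 22 lay within the counting interval of the reported value. In the order *Saa3*, *Lcn2*, *Hp*, *Slpi*, the values outside it for microglia-like cells were 4.19, 4.93, 0.27 and 1.21 without integration, 3.85, 2.97, 1.50 and 1.33 with 20 principal components, and 4.24, 5.10, 0.61 and 1.17 at resolution 0.4. With a mitochondrial limit of 5%, *Lcn2*, *Hp* and *Slpi* were at 4.74, 1.32 and 1.72, and without predicted doublets at 3.55, 0.74 and 1.50. As a mean over cells, *Saa3*, *Lcn2* and *Slpi* were at 5.29, 5.15 and 3.52, and in cells with no UMI of the 6 genes at 5.41, 4.26 and 3.05. With clusters named from 25% of their markers, an alternative chosen after seeing the data, *Lcn2* and *Hp* were at 4.29 and 2.21.

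For monocyte- or macrophage-like cells, the values were 4.45, 4.17, 1.70 and 3.05 with the limit of 5%. *Saa3*, *Hp* and *Slpi* were at 4.0, 1.61 and 3.33 without integration, at 4.36, 1.76 and 3.36 with 20 principal components, and at 4.28, 1.83 and 2.89 as a mean over cells. At resolution 0.4 the 4 were at 4.50, 4.26, 1.87 and 3.37. Without predicted doublets, *Saa3*, *Lcn2* and *Slpi* were at 4.40, 4.24 and 3.65. In cells with no UMI of the 3 neutrophil genes, chosen after seeing the data, they were at 4.35, 5.40 and 1.03. Scaling by the median of ratios shifted this class by 0.14 (median −0.14), to 4.72 for *Saa3* and 1.82 for *Slpi*. Subtracting the T cell-like level took *Lcn2* to 8.98, with control levels that were nearly equal in both classes. It gave no value for *Lcn2* and *Slpi* in microglia-like cells, where the control level was below that of T cell-like cells.

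In neutrophil-like cells under 10 *Ngp* UMIs, chosen after seeing the data, the log2 ratio of *Lcn2* turned from −0.41 to 2.40, and in cluster 4 from −1.50 to 1.20.

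The shares of microglia-like cells with anti-CD9 Ab were 31.9% for *Saa3*, 7.65% for *Lcn2* and 3.39% for *Slpi* at 500 UMIs. Not thinned, they were 66.9%, 19.2%, 3.51% and 10.9%. Without predicted doublets *Lcn2*, *Hp* and *Slpi* were in 4.67%, 0.58% and 2.19%. The T cell-like levels of *Saa3*, *Lcn2* and *Slpi* were 295, 29.7 and 47.0 CPM without predicted doublets and 319, 37.9 and 50.7 CPM at the limit of 5%. Of the listed genes in microglia-like cells, 5 instead of 0 were past 2-fold lower at a minimum of 10 UMIs. In monocyte- or macrophage-like cells, 3 instead of 6 were lower at 200 UMIs. The causes of these shifts were not tested. No paired analysis was possible because each antibody had 1 library. Depth limited *Hp* in microglia-like cells, with 26 and 64 UMIs.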

Other observations

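Clusters that took no name also held members. Cluster 23, led by *Spp1*, *Cst7* and *Cxcl13* and nearest to microglia, had 3 of the 12 microglia markers up. *Saa3* there was at 29.7 CPM from 6 UMIs in 79 control Ab cells and at 26049 CPM in 36 anti-CD9 Ab cells, and *Lcn2* was at 0 and 579 CPM. Cluster 22, led by the cell cycle genes *Stmn1* and *Top2a*, held *Saa3* at 394 and 3815 CPM. Cluster 5, led by *Ighg1*, *Mzb1*, *Pclaf* and *Slpi*, had 37 and 1201 cells (control Ab and anti-CD9 Ab), the latter at a median of 765 UMIs, and held *Slpi* at 316 and 5356 CPM and *Saa3* at 0 and 4444 CPM. Cluster 9, led by *Gdf15* and *Hilpda* and nearest to neutrophils, held 1 control Ab cell and 809 anti-CD9 Ab cells, with *Lcn2* at 5968 CPM and *Slpi* at 5980.2 CPM in the latter.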
